A study of Gossypium hirsutum with 6 samples.

Results

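Sphingoid bases are the backbone of sphingolipids, a lipid class that plants hold mainly in the plasma membrane and other endomembranes. The genes of their synthesis and modification were examined in upland cotton (Gossypium hirsutum), a tetraploid that carries an A and a D subgenome. The members are all rows of the deposited expression table whose matched Arabidopsis locus is 1 of 9, namely LCB1 (AT4G36480), LCB2A (AT5G23670), SBH1 (AT1G69640), SBH2 (AT1G14290), LOH1 (AT3G25540), LOH2 (AT3G19260), LOH3 (AT1G13580), SLD1 (AT3G61580) and SLD2 (AT2G46210). This gave 39 cotton copies of 8 loci, out of 70478 genes, and no row was matched to LOH1. The names are those of Arabidopsis genes, and the roles given here are known from Arabidopsis.

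Wild-type seedlings of the strain CCRI24 were moved at an age of 4 d to MS medium that held the solvent DMSO or 5 μM AZD, and stayed there for 24 h. AZD is a compound that competes with ATP at the TOR kinase. The labels give the age of the seedlings as 5 d and the tissue as whole seedling, so that all organs were pooled in each RNA. Each treatment had 3 libraries, which the paper calls biological repeats. Values are FPKM, which scale the fragments of a transcript by its length and by the mapped fragments of the library, and the libraries are named by their sample labels. The direction of every difference rests on those labels and is in doubt. For Gh_D02G1254, a member described below, and for other genes measured by real-time PCR, the paper gives the opposite direction between the treatments. It states that these PCR results matched its RNA-Seq analysis. Values of the other genes are not given here. The paper also places carbon fixation in photosynthesis among its down-regulated genes, whereas the green-tissue genes below summed higher under the label AZD. These measures are unlike, since the paper gives a pathway enrichment among called genes and the sum also holds light-harvesting genes. Which of these sources is in error could not be settled, and each "higher" and "lower" would turn if the group labels were exchanged. Within a group, library values are given in the order of replicates 1, 2 and 3.

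Serine palmitoyltransferase, a dimer of LCB1 and LCB2, joins serine to palmitoyl-CoA and so opens the pathway. The sphingoid base hydroxylases SBH1 and SBH2 add a hydroxyl group that turns dihydroxy bases into trihydroxy bases, which make up most of the sphingoid bases of Arabidopsis leaves. The ceramide synthases then attach a fatty acid: LOH1 and LOH3 prefer very-long-chain fatty acids and trihydroxy bases, whereas LOH2 prefers shorter fatty acids and dihydroxy bases. The long-chain base desaturases SLD1 and SLD2 put a double bond into the base.

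Of the 39 copies, 30 averaged 0.5 FPKM or more across the 6 libraries and were tested, 2 were listed at 0 in every library, and the other 7 had a mean below the filter. The copies nearest to that filter were Gh_A12G0984 (SLD1), at a mean of 0.553 FPKM, and Gh_A12G0215 (LOH2), at 0.209 FPKM. A copy counts as higher or lower under the label AZD at an adjusted p under 0.05, by limma with a trend on log2(FPKM + 0.5) and Benjamini-Hochberg adjustment over the 43158 tested genes. By this test 4 copies were higher, 1 was lower and 25 were not past the test, while 4.69% of all tested genes were called (1.89% higher and 2.8% lower). The groups did not overlap in 12 copies, 6 of them with all AZD libraries on the upper side and 6 with all on the lower, while this held for 30% of all tested genes (14.5% upper and 15.5% lower). The loci were chosen by their place in the pathway and by measured fold changes of this same comparison, so these counts describe the copies and nothing is read from them. Their median log2 fold change was −0.09, against −0.01 over all tested genes. The plot of fold changes sets the tested copies side by side.

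**Figure D1:**
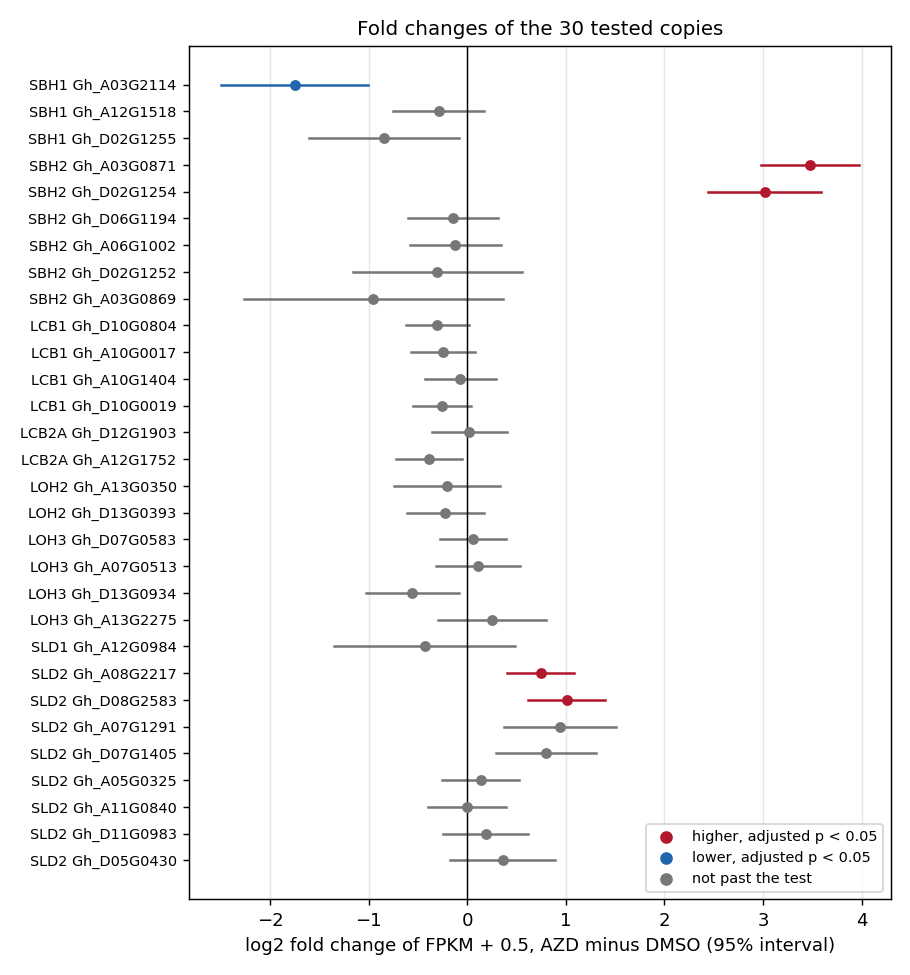
Log2 fold change of FPKM + 0.5 (x axis, libraries labelled AZD minus libraries labelled DMSO) of the 30 tested copies (y axis), with 95% intervals of limma as lines. Red points are the 4 copies called higher, the blue point is the copy called lower, and grey points did not pass the test. The hydroxylase copies span −1.75 to 3.48, while the copies of LCB1, LCB2A, LOH2 and LOH3 lie between −0.56 and 0.25.

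On the second principal component, which held 20.8% of the variance, DMSO replicate 1 lay far from DMSO replicates 2 and 3. The sum of FPKM ran from 2773880 to 6222402 per library, and median-of-ratios factors from 0.993 to 1.03. Of the marker lists, the copies of green-tissue genes (RBCS1B, RBCS2B, LHCB1.3, LHCB2.1 and LHCA1) summed to 11340 to 24790 FPKM in the libraries labelled DMSO and to 44630 to 51010 FPKM in those labelled AZD. Of their 20 tested copies, 9 were higher and 1 lower, and RBCS1A and RBCS3B had no row. The root list (SCR, SHR, EXPA7 and RHD6) summed to 19.2 to 34.3 and 18.2 to 31.5 FPKM, with all copies of the root-hair genes EXPA7 and RHD6 below the filter. Seed storage and oil-body genes summed to at most 6.01 FPKM in any library.

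The hydroxylases held the largest differences among the members, and their copies went in opposite directions. A pair of SBH2 copies, Gh_A03G0871 and Gh_D02G1254, was higher by about an order of magnitude in the libraries labelled AZD, while the SBH1 copy Gh_A03G2114 was lower. The 12 copies comprise 9 matched to SBH2, of which 6 were tested, and 3 matched to SBH1, all tested.

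Gh_A03G0871 gave 4.82, 2.87 and 3.82 FPKM under the label DMSO and 48.8, 53.1 and 40.0 FPKM under the label AZD. The lowest library labelled AZD was far above the highest labelled DMSO. The group means were 3.84 ± 0.972 and 47.3 ± 6.69 FPKM (SD, n = 3), a ratio of 12.3 and a log2 fold change of 3.48 (SE 0.20, limma adjusted p = 0.00208). Only 53 of the 43158 tested genes had a larger fitted rise.

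Gh_D02G1254 gave 3.07, 2.12 and 4.42 FPKM under the label DMSO and 31.2, 28.7 and 25.8 FPKM under the label AZD. The groups were again far apart, with a ratio of means of 8.93 and a log2 fold change of 3.02 (SE 0.24, limma adjusted p = 0.00533). Both copies passed the test whichever library was left out, at an adjusted p no higher than 0.0175 for Gh_A03G0871 and 0.0327 for Gh_D02G1254. Gh_D02G1254 is also among the genes that the study chose from these libraries for real-time PCR. There its text gives a lower level under AZD, opposite to the labelled libraries. The paper states that its PCR and RNA-Seq results matched, so the conflict lies between its stated direction and the labels. Since whole seedlings were sequenced, a change in the RNA per cell and a change in the number of cells that express a gene cannot be told apart. The green-tissue sums moved with the same groups, and their part in these differences was not tested.

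**Figure D2:**
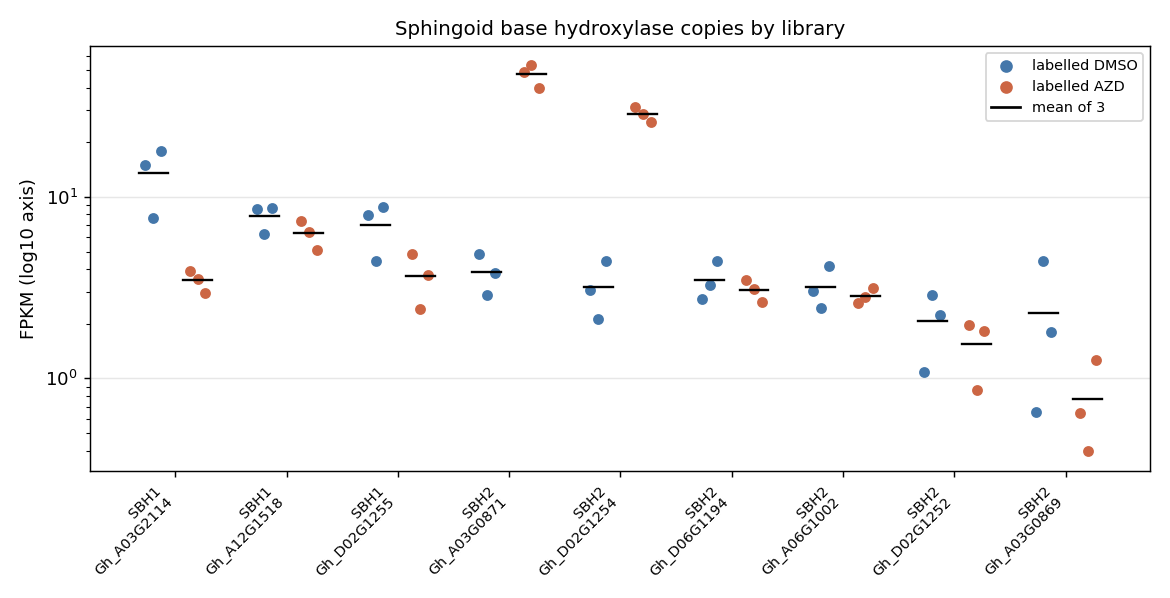
FPKM (y axis, log10 scale) of the 9 tested hydroxylase copies (x axis) in each of the 3 libraries labelled DMSO (blue) and the 3 labelled AZD (orange), with black lines at the group means. Gh_A03G0871 and Gh_D02G1254 sit at 4.82 FPKM or less in the first group and between 25.8 and 53.1 FPKM in the second, whereas Gh_A03G2114 is at 7.67 FPKM or more in the first and at 3.90 FPKM or less in the second.

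The SBH1 copy Gh_A03G2114 gave 15.1, 7.67 and 18.0 FPKM under the label DMSO and 3.90, 3.55 and 2.97 FPKM under the label AZD. The groups did not overlap, and the mean was 3.91 times as high in the libraries labelled DMSO (log2 difference −1.75, SE 0.31, limma adjusted p = 0.0358). Of the 6 fits that leave out a library, this call held only in that without DMSO replicate 2 (adjusted p = 0.00984). In the others the adjusted p was 0.0536 to 0.124.

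The SBH1 copy Gh_D02G1255 gave 7.92, 4.41 and 8.77 FPKM under the label DMSO and 4.86, 2.43 and 3.73 FPKM under the label AZD. It overlapped between the groups and was not past the test (log2 difference −0.84, 95% interval −1.61 to −0.08 before adjustment, adjusted p = 0.179). The third SBH1 copy, Gh_A12G1518, ranged from 5.09 to 8.65 FPKM over the 6 libraries, with overlapping groups (log2 difference −0.29, adjusted p = 0.418).

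The remaining 4 tested SBH2 copies were not past the test. Gh_A06G1002 and Gh_D06G1194 ranged from 2.45 to 4.41 FPKM over all libraries, with log2 fold changes of −0.12 (95% interval −0.58 to 0.35) and −0.14 (−0.60 to 0.32). Gh_D02G1252 and Gh_A03G0869 lay between 0.397 and 4.45 FPKM, with log2 fold changes of −0.30 (95% interval −1.16 to 0.56) and −0.95 (−2.27 to 0.36). These 2 stood lowest in AZD replicate 2, and all 4 overlapped between the groups. The 3 untested SBH2 copies, Gh_D02G1253, Gh_A03G0870 and a scaffold copy, did not exceed 0.297 FPKM in any library.

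The called SBH2 copies lie in runs of gene numbers that hold several hydroxylases, a feature the choice of members did not use. Gh_D02G1252, Gh_D02G1253 and Gh_D02G1254 are numbered in a row and matched to SBH2, and the next number, Gh_D02G1255, is matched to SBH1. On A03 the run is Gh_A03G0869, Gh_A03G0870 and Gh_A03G0871, while the SBH1 copy Gh_A03G2114 has a number far from it. The genes numbered after both runs are matched to the same 3 loci in the same order, AT2G02950, AT1G26870 and AT1G69610, with 1 further gene between the first and the second on A03. The other tested genes numbered beside these runs were not past the test, with log2 fold changes of −1.25 to 1.01. Beside the SBH1 copy Gh_A03G2114, the gene Gh_A03G2113 (AT1G68570) was lower (log2 difference −1.18, adjusted p = 0.0399). Within each run the levels differed widely: in the libraries labelled AZD the mean was 47.3 FPKM for Gh_A03G0871, 0.0279 FPKM for Gh_A03G0870 and 0.769 FPKM for Gh_A03G0869. On D02 it was 28.6 FPKM for Gh_D02G1254, 0.120 FPKM for Gh_D02G1253 and 1.55 FPKM for Gh_D02G1252. How reads shared by such similar copies were divided among them is not given in the sources used here, so the split between copies is less certain than their sum.

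Summed over all 12 copies, the hydroxylases gave 46.9, 36.5 and 56.5 FPKM under the label DMSO and 105, 102 and 86.6 FPKM under the label AZD. The ratio of means was 2.1, and the groups did not overlap. No test is given for this or the other sums, since they run over copies chosen with this comparison known. Gh_A03G0871 and Gh_D02G1254 together made up 13.7% to 16.8% of this sum in the libraries labelled DMSO and 75.9% to 80.5% in those labelled AZD. The SBH1 copies Gh_A03G2114 and Gh_D02G1255 made up 33.2% to 49.0% of the sum in the first group and 5.88% to 8.35% in the second. Without the called SBH2 pair, the other 10 copies summed to 31.5 to 48.3 FPKM in the libraries labelled DMSO and to 19.9 to 24.8 FPKM in those labelled AZD, so the order of the groups turned. That pair was left out because it was called higher in this comparison, while Gh_A03G2114, called lower, stayed in the sum.

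**Figure D3:**
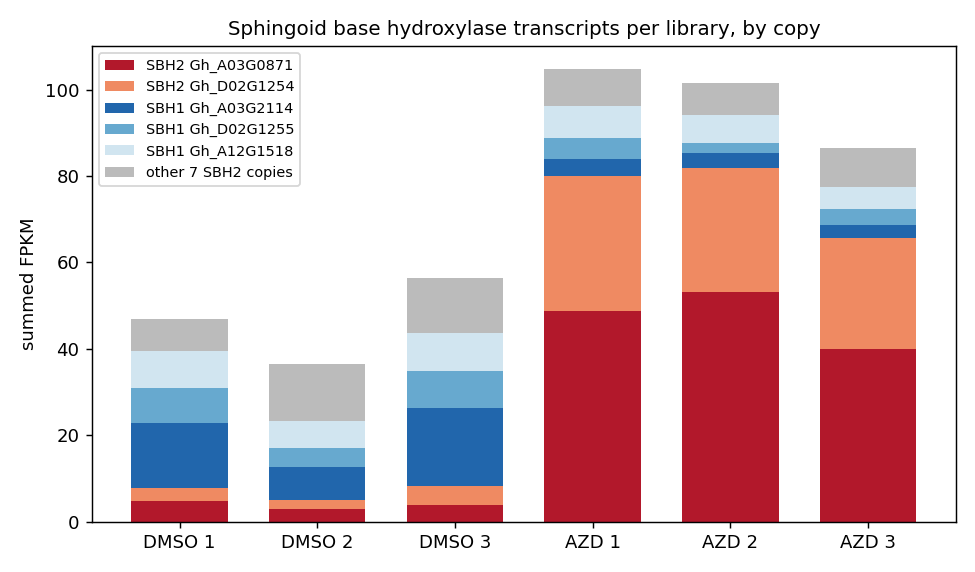
Summed FPKM of all hydroxylase copies (y axis, from 0) in each library (x axis), stacked by copy. The SBH2 copies Gh_A03G0871 and Gh_D02G1254 (red and orange) take 13.7% to 16.8% of the bars labelled DMSO and 75.9% to 80.5% of the bars labelled AZD, while the SBH1 copies Gh_A03G2114 and Gh_D02G1255 (dark and mid blue) take 33.2% to 49.0% and 5.88% to 8.35%.

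For Gh_A03G0871, the most abundant hydroxylase copy, the 41174 other tested genes with a match were ranked by the root mean square difference of log2(FPKM + 0.5), each gene centred on its mean over the 6 libraries. The nearest profile was that of Gh_D02G1254, at 0.33. Next came Gh_D09G0867 (AT2G29990), listed at 0 in the libraries labelled DMSO, at 0.36, and Gh_A11G0818 (AT3G61460), at 0.37. Gh_D02G1225, matched to the phosphoethanolamine N-methyltransferase AT3G18000, followed at 0.37, and Gh_D13G1874 (AT1G56220) at 0.38. Gh_D02G1225 was the most abundant of these, with 23.8, 16.1 and 18.4 FPKM under the label DMSO and 129, 146 and 185 FPKM under the label AZD. The ranking rests on 6 libraries in 2 groups and is a description.

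Among the desaturases, 2 copies of SLD2 were higher in the libraries labelled AZD. Gh_A08G2217 and Gh_D08G2583, the most abundant desaturase copies, were called, and 2 more copies on A07 and D07 had groups that did not overlap without passing the test. In all, 2 of the 8 tested SLD2 copies were called higher and none lower, with fold changes of 2.04 or less between the means of the called copies.

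Gh_A08G2217 gave 24.8, 21.4 and 28.3 FPKM under the label DMSO and 42.5, 41.7 and 40.9 FPKM under the label AZD. The libraries labelled AZD were nearly alike and all above those labelled DMSO, with a ratio of means of 1.68 (log2 difference 0.75, SE 0.14, limma adjusted p = 0.0413). Gh_D08G2583 gave 15.8, 12.8 and 17.6 FPKM under the first label and 32.0, 34.3 and 28.0 FPKM under the second. Its ratio of means was 2.04 (log2 difference 1.01, SE 0.16, limma adjusted p = 0.0282). Of the 6 fits that leave out a library, both calls held only in that without DMSO replicate 1 (adjusted p = 0.0483 and 0.0326). In the others the adjusted p was 0.0682 to 0.165 for Gh_A08G2217 and 0.0537 to 0.124 for Gh_D08G2583. The green-tissue sums moved in the same direction here too, and their part was not tested.

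Gh_A07G1291 gave 6.02, 4.44 and 8.60 FPKM under the label DMSO and 11.9, 13.8 and 11.2 FPKM under the label AZD (log2 difference 0.94, adjusted p = 0.0755). Gh_D07G1405 gave 6.19, 4.63 and 7.99 FPKM under the first label and 10.1, 12.8 and 10.5 FPKM under the second (log2 difference 0.80, adjusted p = 0.0847). In both, DMSO replicate 3 was the highest and DMSO replicate 2 the lowest of their group, and all libraries labelled AZD were above them. The copies on A05, D05, A11 and D11 ranged from 2.15 to 5.86 FPKM, overlapped between the groups and had log2 fold changes of −0.0037 to 0.36. The SLD1 copy Gh_A12G0984 gave 0.191, 1.16 and 0.870 FPKM under the label DMSO and 0.252, 0.477 and 0.370 FPKM under the label AZD, with overlapping groups (log2 difference −0.43, adjusted p = 0.548). Neither the scaffold copy of SLD1 nor the D12 copy of SLD2 exceeded 0.223 FPKM.

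The desaturase copies gave 66.1, 58.5 and 79.9 FPKM under the label DMSO and 113, 120.3 and 106 FPKM under the label AZD, a ratio of means of 1.66. The A08 and D08 copies made up 57.5% to 61.4% of that sum in the libraries labelled DMSO and 63.2% to 65.7% in those labelled AZD. Summed, the remaining desaturase copies also did not overlap between the groups, at 24.3 to 34.0 FPKM against 37.5 to 44.3 FPKM. That remainder holds the A07 and D07 copies, and each of its other copies overlapped between the groups.

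**Figure D4:**
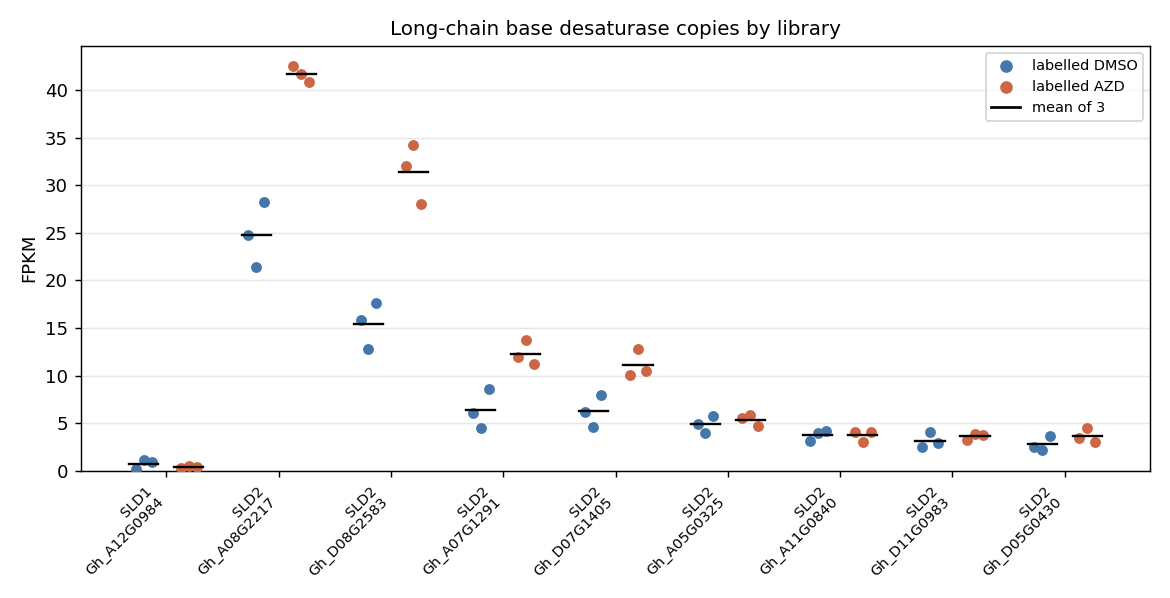
FPKM (y axis, from 0) of the 9 tested desaturase copies (x axis) in each of the 3 libraries labelled DMSO (blue) and the 3 labelled AZD (orange), with black lines at the group means. The 4 SLD2 copies on A08, D08, A07 and D07 lie above all libraries labelled DMSO in every library labelled AZD, and the other copies, all at 5.86 FPKM or less, overlap.

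Serine palmitoyltransferase showed no copy past the test among 6 tested. LCB1 had 4 tested copies of similar level, and each had a lower mean in the libraries labelled AZD, with log2 fold changes of −0.30 to −0.07. Gh_D10G0804, the most abundant of them, gave 9.71, 8.68 and 9.68 FPKM under the label DMSO and 7.61, 8.43 and 6.54 FPKM under the label AZD (log2 difference −0.30, 95% interval −0.62 to 0.02, adjusted p = 0.240). Gh_D10G0019 gave 5.62, 5.79 and 5.63 FPKM under the first label and 4.09, 5.01 and 5.02 FPKM under the second (log2 difference −0.25, adjusted p = 0.278). In these 2 copies the groups did not overlap and in Gh_A10G0017 and Gh_A10G1404 they did overlap. The LCB1 copies gave 32.4, 30.6 and 31.2 FPKM under the label DMSO and 26.0, 28.9 and 25.3 FPKM under the label AZD, a ratio of 0.851.

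LCB2A, the catalytic partner, has a single copy in each subgenome. Gh_D12G1903 gave 27.5, 20.2 and 21.6 FPKM under the label DMSO and 23.6, 21.3 and 25.0 FPKM under the label AZD, with a log2 fold change of 0.02 (95% interval −0.36 to 0.40). Gh_A12G1752 gave 21.0, 16.3 and 17.0 FPKM under the first label and 13.8, 12.9 and 14.2 FPKM under the second, with a log2 fold change of −0.39 (95% interval −0.72 to −0.05 before adjustment, adjusted p = 0.165). The groups overlapped in the D copy and not in the A copy.

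The ceramide synthases also had no copy past the test among 6 tested. LOH3 was the most abundant, in Gh_D07G0583 at 22.2, 19.2 and 18.5 FPKM under the label DMSO and 23.4, 19.8 and 19.1 FPKM under the label AZD. The groups overlapped, with a log2 fold change of 0.06 (95% interval −0.28 to 0.40). Gh_A07G0513 gave 18.4, 12.6 and 12.6 FPKM under the first label and 14.3, 16.0 and 16.2 FPKM under the second, with DMSO replicate 1 above all other libraries (log2 difference 0.11, 95% interval −0.32 to 0.54). On chromosome 13 of the subgenomes the LOH3 copies stood at lower levels. Gh_D13G0934 gave 4.09, 5.10 and 6.29 FPKM under the label DMSO and 2.67, 3.85 and 3.48 FPKM under the label AZD (log2 difference −0.56, adjusted p = 0.158), and Gh_A13G2275 ranged from 1.24 to 2.59 FPKM. Summed, LOH3 gave 46.5, 38.1 and 39.8 FPKM under the first label and 42.2, 42.1 and 41.4 FPKM under the second, with overlapping groups.

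LOH2, the ceramide synthase of the other specificity, was low throughout. Gh_A13G0350 gave 1.36, 1.28 and 1.48 FPKM under the label DMSO and 0.983, 0.836 and 1.68 FPKM under the label AZD (log2 difference −0.20, adjusted p = 0.642). Gh_D13G0393 gave 1.18, 1.32 and 1.12 FPKM under the first label and 0.912, 1.09 and 0.896 FPKM under the second (log2 difference −0.22, adjusted p = 0.477). The groups overlapped in the A copy and not in the D copy. The copies on A12 and D12 were below the filter, at means of 0.209 and 0.194 FPKM. The LOH2 copies gave 2.80, 3.01 and 2.98 FPKM under the label DMSO and 2.58, 2.24 and 2.96 FPKM under the label AZD, far below LOH3 in every library.

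Levels of the A and the D copy of a locus were compared within each library, a measure that the choice of members did not use. How reads shared by an A and a D copy were divided is not given either, which limits these differences. A pair was taken where 1 A and 1 D copy lie on chromosomes of the same number, each the sole copy there and both tested, which gave 9 pairs. In 5 pairs all 6 libraries differed in the same direction (exact sign-flip permutation test, two-sided, p = 0.0312, the smallest that 6 libraries allow, and 0.0562 after Benjamini-Hochberg adjustment over the 9 pairs), so no pair passed 0.05 after adjustment. The D copy was above the A copy in LCB2A (Gh_D12G1903, mean log2 difference 0.54 ± 0.23, SD, n = 6) and in both LOH3 pairs (0.44 ± 0.19 for Gh_D07G0583 and 0.88 ± 0.51 for Gh_D13G0934). The A copy was above the D copy in the SLD2 pairs on chromosomes 8 and 5 of the subgenomes (−0.54 ± 0.17 for Gh_D08G2583 and −0.62 ± 0.18 for Gh_D05G0430). The remaining 4 pairs, of SBH2, LOH2 and SLD2, had differences of −0.14 to 0.10 and no common direction over the libraries.

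Across the groups, the LCB2A pair had the tightest values. The D minus A difference was 0.38, 0.30 and 0.34 in DMSO replicates 1, 2 and 3 and 0.76, 0.70 and 0.79 in AZD replicates 1, 2 and 3. The mean thus moved by 0.41 on the log2 scale, against an SD of 0.04 and 0.05 within the groups. For Gh_A13G2275 and Gh_D13G0934 of LOH3 the difference was 0.94, 1.68 and 1.23 and then 0.46, 0.60 and 0.37. For Gh_A08G2217 and Gh_D08G2583 of SLD2 it was −0.63, −0.72 and −0.67 and then −0.41, −0.28 and −0.54. In these 3 of the 9 pairs the groups did not overlap. The share of such pairs over the whole table was not computed, so nothing is read from this count. They were singled out after the values were seen and rest on the comparison that chose the loci, so no test is given. Gh_A03G0871 and Gh_D02G1254 were not paired by this rule, since they lie on chromosomes of different number and each has further SBH2 copies beside it.

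**Figure D5:**
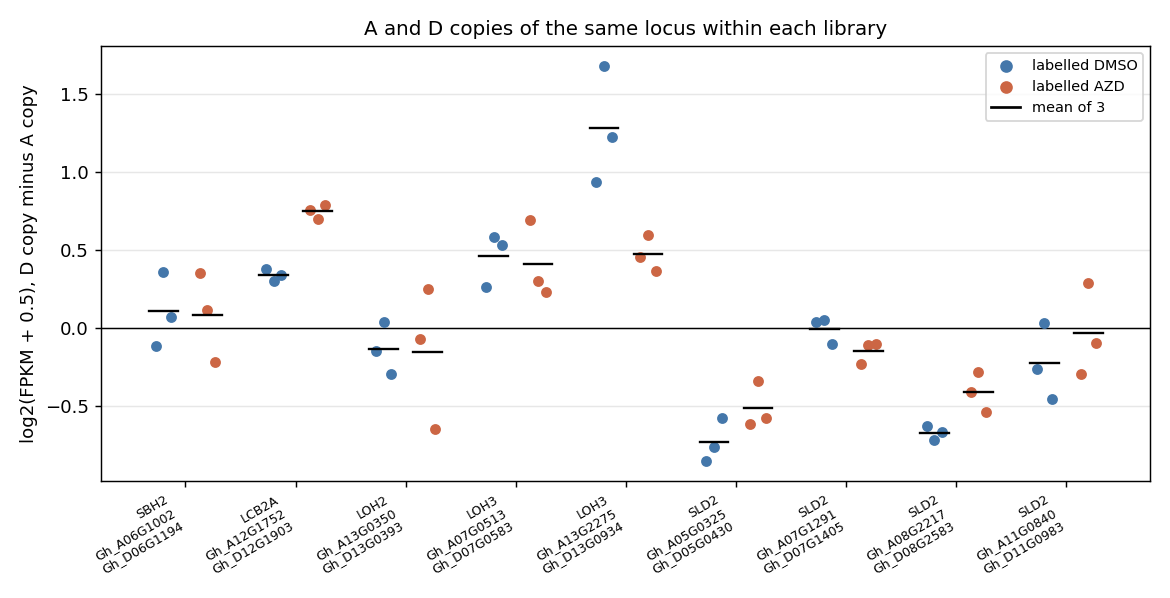
Difference of log2(FPKM + 0.5), D copy minus A copy (y axis), for the 9 pairs (x axis) in each library labelled DMSO (blue) and AZD (orange), with black lines at the group means. The LCB2A pair lies between 0.30 and 0.38 in the first group and between 0.70 and 0.79 in the second, and the LOH3 pair with Gh_D13G0934 between 0.94 and 1.68 and then between 0.37 and 0.60.

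Of 35 further loci of sphingolipid metabolism, 29 had rows, in 105 copies, of which 82 were tested. None was past the test (limma), and 13 copies (15.9%) had an unadjusted p under 0.05, against 23.4% of all tested genes. The median log2 fold change of the 82 copies was 0.02. Without DMSO replicate 1, 3 of 83 tested copies were called, while that fit called 3590 of all 42939 tested genes. Nothing is read from this count. Gh_D04G0644 (GMT1, a mannosyltransferase of complex sphingolipids) was higher (log2 difference 0.65, limma adjusted p = 0.0414, against 0.37 and 0.434 with all 6 libraries). Gh_A12G0420 (ACD11, a transfer protein of phosphorylated ceramides) was lower (−0.74, adjusted p = 0.0493, against −0.65 and 0.0663), and so was Gh_A11G2568 (LCBPP1, adjusted p = 0.00351, against 0.202).

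The most abundant copy of these loci was Gh_D06G1958 of FAH1, which hydroxylates the fatty acid of ceramides, at 61.1, 75.2 and 115 FPKM under the label DMSO and 58.5, 70.6 and 44.0 FPKM under the label AZD (log2 difference −0.51, adjusted p = 0.344). Gh_D07G1356 of ORM1, a regulator of serine palmitoyltransferase, gave 22.8, 17.0 and 22.5 FPKM under the first label and 27.5, 25.5 and 27.0 FPKM under the second (log2 difference 0.36, adjusted p = 0.214). Gh_D04G0755 of TSC10A, the reductase after serine palmitoyltransferase, had means of 7.58 and 7.70 FPKM (log2 difference 0.02, 95% interval −0.26 to 0.29). The other leading copies were Gh_D10G2242 of CER10 in fatty acid elongation (0.28), Gh_D02G0447 of the transfer protein GLTP1 (0.27), Gh_A01G1939 of the ceramidase NCER1 (0.32), Gh_A10G0240 of the desaturase DES (−0.40) and Gh_D08G1469 of the kinase LCBK2 (0.35), each value a log2 fold change with an adjusted p of 0.157 to 0.359.

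The phosphatase LCBPP1 and the lyase DPL1 both act on phosphorylated sphingoid bases. All 5 of their tested copies had lower means in the libraries labelled AZD, and none passed the test. They and Gh_A12G0420 were singled out after their values were seen. Gh_D09G1220 (LCBPP1) gave 11.2, 8.95 and 9.23 FPKM under the label DMSO and 7.18, 5.49 and 7.04 FPKM under the label AZD (log2 difference −0.54, adjusted p = 0.103). Gh_A01G1272 (DPL1) gave 5.06, 3.89 and 6.18 FPKM under the first label and 3.08, 2.18 and 3.29 FPKM under the second (log2 difference −0.72, adjusted p = 0.108). Gh_A11G2568 (LCBPP1) was listed at 0 in DMSO replicate 1 and in all libraries labelled AZD, and at 6.33 and 5.53 FPKM in DMSO replicates 2 and 3. Gh_A12G0420 (ACD11) came closest to the threshold, with 14.3, 17.4 and 16.9 FPKM under the label DMSO and 9.96, 8.77 and 11.7 FPKM under the label AZD (log2 difference −0.65, adjusted p = 0.0663). The other tested ACD11 copy, Gh_D12G0416, overlapped between the groups, at means of 11.95 and 10.96 FPKM (log2 difference −0.11, limma adjusted p = 0.689).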

How the data were processed

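RNA from 6 libraries of whole cotton seedlings, 3 labelled DMSO and 3 labelled AZD, was sequenced as paired ends. The authors mapped the reads with TopHat2, assembled them with Cufflinks and compared groups with Cuffdiff, and they deposited 1 FPKM value for each gene in each library, which was used without change. Neither versions nor build are stated (not given in the sources used here), nor is any rescaling between libraries. The paper names a directional kit and the labels another, so the use of strand is not settled. The 6 columns of values were used and 0 left out. Groups came from the sample labels. Genes are named by the Arabidopsis locus that the table gives, because the RefSeq gene list matched 0 of the IDs, and no sequences are shown.

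Testing was limited to genes that averaged 0.5 FPKM or more, and used limma 3.58.1 (R 4.3.3), with trend, on log2(FPKM + 0.5), two-sided, with Benjamini-Hochberg adjustment over all 43158 genes. The added 0.5 makes the fold changes of low genes smaller than their FPKM ratios. FPKM are not counts, so no count model was used. Low values gave each library's relative depth as 0.92 to 1.46 times that of DMSO replicate 1. The clean reads that the paper lists give another order: AZD replicate 3 had the most, while low values put DMSO replicate 3 first. The number of fragments behind a single value is not given. Differences between A and D copies were tested over the libraries with exact permutation tests in Python 3.11.15 (pandas 2.3.3, numpy 2.4.6, scipy 1.17.1). The limma p-values weigh each difference against a spread between these libraries that is moderated over all tested genes. Those of the permutation tests rest on these libraries alone.

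The members, the list of further loci and the marker lists were chosen with earlier results of these data known. Library values are given for copies that were called, that had a mean of at least 5 FPKM and groups that did not overlap, or that were the most abundant of a locus, with their partners, and, chosen after their values were seen, for Gh_D02G1255, Gh_D13G0934 and the copies so named in the text. Of the further loci, the most abundant copy of each step was named. Other settings tried were pseudocounts of 0.1 and 1, leaving the filter off or raising it to 1 FPKM, median-of-ratios scaling, quantile normalization, limma without trend, a replicate block and leaving out each library.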

Additional observations from a re-analysis of the deposited data

How the results depend on the processing

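The 5 called copies were also 5 with a pseudocount of 0.1 or 1, a mean of at least 1 FPKM, median-of-ratios scaling or quantile normalization, and 4 with limma without the trend. Without the filter on low values 2 were called (both SBH2) and 737 genes over the whole table, against 2025. With 1 library left out, 2 to 4 members and 199 to 3590 genes were called, and 0 to 3 of the further sphingolipid copies, the 3 without DMSO replicate 1. Gh_A03G0871 and Gh_D02G1254 were called in each of these fits.

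Same-numbered libraries did not deviate together (correlations across genes of 0.018, −0.042 and −0.088 for replicates 1, 2 and 3), so the numbers are not taken as pairs. With the replicate block, 1 member (Gh_A03G0871) and 72 genes were called, and Gh_D02G1254 had an adjusted p of 0.0578. The summed levels and the D minus A differences kept their direction under every alternative run, except the LOH3 sum, whose log2 difference of 0.02 went to −0.04 without DMSO replicate 2 and to −0.0067 without DMSO replicate 3. Depth limits the low copies: those under 0.5 FPKM give no comparison.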
